A study of Mus musculus with 34 samples.

Results

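The 6 libraries described here were made from MOSJ-Dkk-1 cells under nutritional stress, 3 from cultures that received scrMo and 3 from cultures without morpholino (NT). They were chosen by their labels from 18 culture libraries, in a series of 34 samples. MOSJ-Dkk-1 is a murine osteosarcoma line that makes human Dkk-1 from a CMV promoter, an inhibitor of canonical Wnt signalling, and every group of the series carries this transgene. scrMo is the control for DkkMo, a vivo morpholino against Dkk-1. The labels call it scrambled, while the study's text gives it 5 mismatches, a design that would keep the rest of the DkkMo sequence. The sequences were not checked here. scrMo was added at 5 µM, 24 h after seeding. For nutritional stress, cultures were held confluent for 48 h and went without a media change for 4 days, and the log phase groups were collected while still growing. All libraries come from 1 engineered line, so differences between lines were not measured. The labels do not say whether the 3 libraries of a group are separate cultures, and 2 of the stress NT titles carry the same number, 2. The p values therefore measure the spread between these libraries, which may be technical.

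A vivo morpholino is a synthetic antisense oligomer joined to a group that carries it into cells. It binds RNA by base pairing and blocks translation or splicing without cutting the RNA. The comparison of scrMo with NT asks how the transcriptome of starved, confluent cells differs with and without the control oligomer. Several well-known programmes are relevant to such cells. Mitochondrial DNA is transcribed into long RNAs from both strands, which are cut at the tRNAs to release rRNAs and mRNAs. Interferon-stimulated genes are switched on by factors that include Stat2. Heat shock factor switches on cytosolic chaperones, and p53 switches on genes of cell cycle arrest and cell death.

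Reads on the listed genes numbered 34.9 to 40.5 M per stress NT library and 25.9 to 35.5 M per stress scrMo library (exact permutation test, two-sided, p = 0.2). The Spearman correlation across genes was 0.9965 to 0.9975 between libraries of a group and 0.983 to 0.987 between libraries of different groups, although genes are not independent replicates. No pair of libraries agreed within sampling noise, and the lowest chi-square per degree of freedom between replicates was 2.95. The human Dkk-1 transgene is not in the mouse reference and mouse Dkk1 has no value in the table, so the target of DkkMo was not measured here. Of 27 osteoblast lineage genes, 18 had a value. Runx2, Alpl, Spp1 and Bglap were among them, and the defining osteoblast genes Sp7 and Ibsp had none.

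Under nutritional stress, 734 of 16562 genes tested differed between scrMo and NT. Genes were called differentially expressed (DE) where they changed by over 1.5-fold with an adjusted p below 0.05, and they made up 4.43% of all genes. With scrMo 314 genes were higher (1.90% of all genes) and 420 lower (2.54%). In counts over gene lists, rose and fell mean DE higher and DE lower. All log2 fold changes are differences of group means of the deposited variance-stabilised values (VST, a log2 scale), scrMo minus NT, tested with limma. Their median over all genes was -0.0019. The VST compresses the changes of genes with few reads, so folds of normalised read counts, which are reads divided by a size factor for each library, are given beside it. Without the fold threshold 46.8% of all genes passed, 22.1% higher and 24.7% lower. For 63.5% of all genes the 3 scrMo libraries and the 3 NT libraries did not overlap. These included all 734 DE genes, so a lack of overlap adds nothing to a DE call. Over 2-fold changes were found for 108 genes. The values are relative to the RNA of each library, so fewer cells with an RNA and less of it per cell cannot be told apart.

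**Figure D1:**
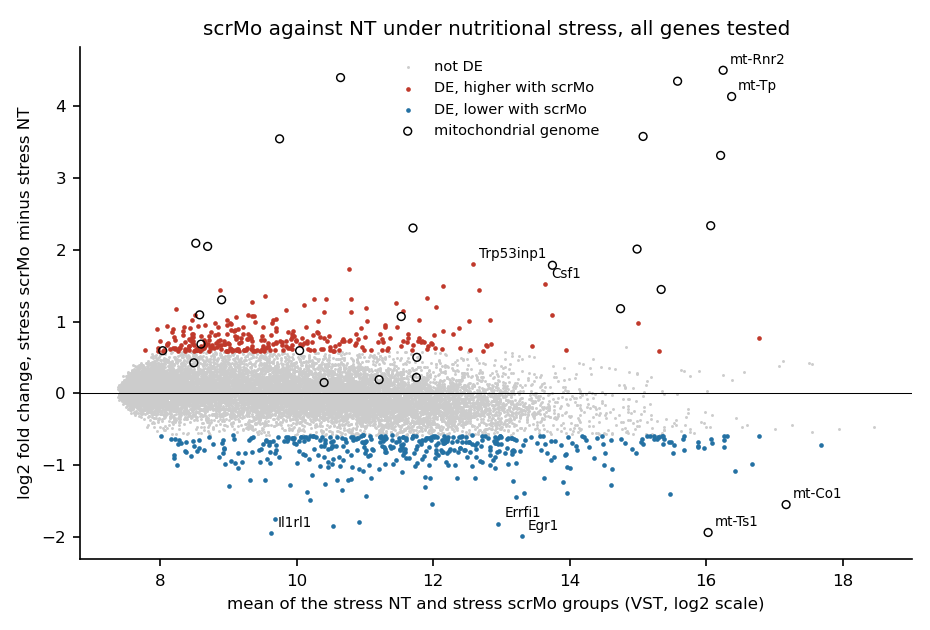
Each point is 1 of the 16562 genes tested. The x axis gives the mean of the stress NT and stress scrMo groups and the y axis the log2 fold change, scrMo minus NT. DE genes are red (314 higher) or blue (420 lower), and open circles are the 28 genes of the mitochondrial genome, from mt-Rnr2 at 4.50 to mt-Ts1 at -1.94.

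On the VST scale the 12 largest rises were all transcripts of the mitochondrial genome, although some nuclear genes with few reads had larger folds of normalised counts than some of these. mt-Rnr2, the large rRNA of the mitochondrial ribosome, lies on chromosome M of GRCm38 from 1094 to 2675. Its normalised read count was 16175, 17242 and 15239 in the NT libraries and 401875, 378287 and 340818 in the scrMo libraries. Every scrMo library lay far above every NT library. The mean rose 23-fold, or by 4.50 on the log2 scale (SE 0.11, adjusted p = 2.17e-16). The small rRNA, mt-Rnr1, rose 20.9-fold, with a log2 fold change of 4.35 (adjusted p = 1.93e-16). Together the 2 rRNAs held 0.0757%, 0.0790% and 0.0698% of the reads in the NT libraries and 1.95%, 1.84% and 1.65% in the scrMo libraries. The shares did not overlap (p = 0.1 in a two-sided exact permutation test, below which 3 against 3 libraries cannot go). All 28 mitochondrial genes with a value held 1.54 to 1.67% of the reads in NT and 5.30 to 5.80% in scrMo. Libraries were selected with oligo(dT), and its capture of mitochondrial rRNAs and tRNAs was not measured. The folds of these RNAs are therefore folds of captured reads, and the part of capture in them was not tested.

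Among 17 mitochondrial tRNAs with a value, 11 rose and 1, mt-Ts1, fell, against 1.90% of all genes higher and 2.54% lower. mt-Tt, the tRNA for threonine, had 119, 120 and 114 normalised counts in NT and 7378, 7196 and 6751 with scrMo, a rise of 60.4-fold. Its neighbour mt-Tp, the tRNA for proline, is encoded on the other strand. It had 19402, 21776 and 19250 in NT and 384987, 344859 and 345622 with scrMo, a rise of 17.8-fold. mt-Tq, for glutamine, rose 12.3-fold to 120006 ± 4800 (SD, n = 3), and mt-Tm, for methionine, rose 60.2-fold to 2675 ± 65.4 (SD, n = 3). The sequences of these 4 are shown because they are shorter than the reads of 150 bp, so a read counted on one of them can extend into its neighbours. They are printed 5′ to 3′ on their own strand from GENCODE transcripts (GRCm38), and the capitals mark the anticodon.
mt-Tt, chrM:15289-15355, plus strand: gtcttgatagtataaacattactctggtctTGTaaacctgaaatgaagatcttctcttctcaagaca
mt-Tp, chrM:15356-15422, minus strand: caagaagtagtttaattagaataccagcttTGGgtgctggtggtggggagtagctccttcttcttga
mt-Tq, chrM:3772-3842, minus strand: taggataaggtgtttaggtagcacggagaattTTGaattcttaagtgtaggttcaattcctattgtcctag
mt-Tm, chrM:3845-3913, plus strand: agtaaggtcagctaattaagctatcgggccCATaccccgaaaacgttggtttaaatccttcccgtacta
mt-Tt and mt-Tp are end to end on opposite strands, and mt-Tq and mt-Tm lie 2 bases apart on opposite strands. The sources used here do not say whether counting used strand, so reads from one strand and the other cannot be told apart in these pairs.

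Of 9 mitochondrial mRNAs with a value, 8 rose and 1 fell, against 1.90% of all genes higher and 2.54% lower. mt-Nd2, a subunit of complex I that lies beside mt-Tm, had 24102, 25193 and 22629 normalised counts in NT and 248202, 237479 and 236901 with scrMo. The groups were far apart, with a log2 fold change of 3.31 (adjusted p = 1.42e-16). mt-Nd1 rose by 2.34, mt-Atp8 by 2.01, mt-Nd6 by 1.78 and mt-Cytb by 1.45 on the same scale. mt-Co1, the catalytic subunit of complex IV, went the other way. Its counts were 251208, 264199 and 247040 in NT and 85421, 86952 and 87494 with scrMo, a log2 fold change of -1.55 (adjusted p = 8.49e-11). mt-Ts1, the serine tRNA that overlaps the end of mt-Co1 on the minus strand, fell by 1.94 on the log2 scale, from 131605 ± 6626 to 34119 ± 689 (SD, n = 3). Of 38 nuclear genes of the respiratory chain, 0 were DE by limma or by limma voom on the recovered reads, with a median of -0.18. An unadjusted p below 0.05 was found for 21. Against 22.1% of all genes higher and 24.7% lower, 0 of the 38 passed the adjusted p as higher and 17 as lower. The lowest were Cox7a2 at -0.37 and Ndufa2 at -0.34. This shift depends on the scaling. Under quantile normalisation 2 of the 38 passed the adjusted p as higher and 4 as lower, with a median of -0.056.

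**Figure D2:**
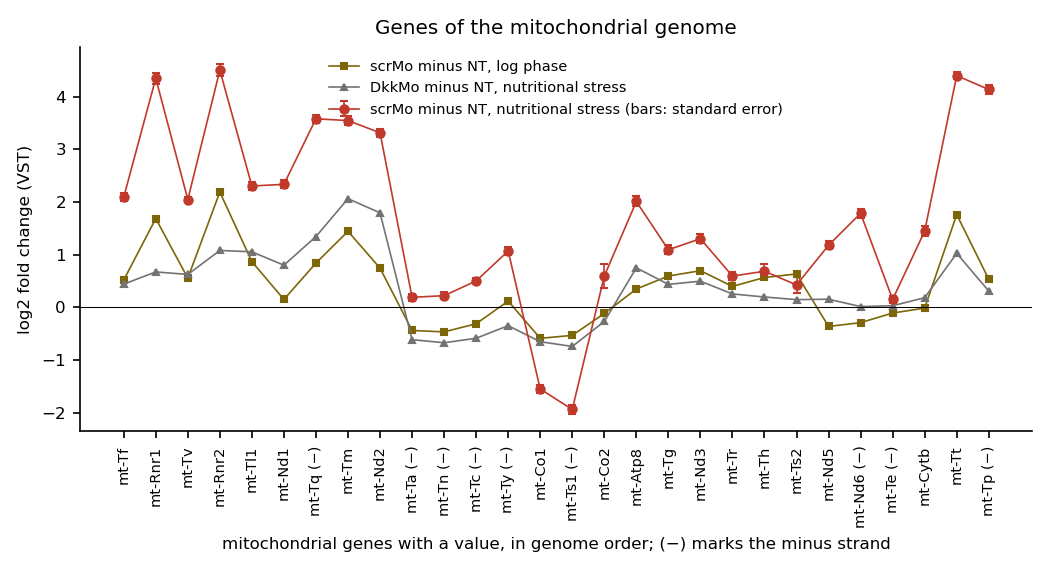
The 28 mitochondrial genes with a value stand in genome order on the x axis, and the y axis gives the log2 fold change of scrMo against NT under stress (circles, with standard errors) and in log phase (squares), and of DkkMo against NT under stress (triangles). The stress scrMo values are highest over the rRNAs, from mt-Tq to mt-Nd2, and at mt-Tt and mt-Tp, and are below 0 at mt-Co1 and mt-Ts1.

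The same RNAs in the other groups are given for comparison. In log phase, scrMo minus NT was 2.19 for mt-Rnr2 and 1.68 for mt-Rnr1, 0.53 for mt-Tp and 0.15 for mt-Nd1. The effect under stress was larger than in log phase by 2.31, 2.66, 3.60 and 2.18 in the same order (adjusted p from the interaction in limma 1.64e-09, 1.90e-10, 1.72e-12 and 4.97e-11). The share of reads on all mitochondrial genes was 2.30 to 2.47% in log phase NT and 2.35 to 2.47% in log phase scrMo. DkkMo against NT under stress, which shares the NT libraries, had differences of 1.08 for mt-Rnr2, 0.67 for mt-Rnr1 and 0.31 for mt-Tp. The DkkMo libraries had 0.163%, 0.173% and 0.147% of reads on the rRNAs.

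Trp53inp1, a p53 target that promotes cell death and autophagy, had the largest rise of a nuclear gene on the VST scale, though not in folds of normalised counts. It lies on chromosome 4 from 11156431 to 11174379. It had 3215, 2805 and 3072 normalised counts in NT and 10441, 11738 and 11537 with scrMo. All 3 scrMo libraries were higher, with a rise of 3.71-fold, or 1.80 on the log2 scale (SE 0.12, adjusted p = 1.30e-09). Ccng1, cyclin G1, another p53 target, rose 2.85-fold from 3731, 3561 and 3834 to 9675, 11402 and 10590 (adjusted p = 2.71e-11). Of 39 measured genes of p53 response and cell death, 8 rose and 1 fell, against 1.90% of all genes higher and 2.54% lower. Among the 39, 18 did not pass the adjusted p. Eda2r, a death receptor of the TNF receptor family, rose by 0.92 (log2), Rrm2b, a ribonucleotide reductase subunit for DNA repair, by 0.87, and Btg2, an anti-proliferative gene, by 0.86. Plk3, a stress kinase, fell by 0.87. The median of the list was 0.09. Cdkn1a and Mdm2, defining p53 targets chosen here after their values were seen, were not DE and had log2 fold changes of 0.52 and -0.18. Csf1, the growth factor of macrophages, rose 2.96-fold, from 7287 ± 527 to 21560 ± 1998 (SD, n = 3), or by 1.53 on the log2 scale (adjusted p = 3.84e-11). Insig1, which holds back cholesterol synthesis, rose 3.03-fold from 2424 ± 59.3 to 7339 ± 749 (SD, n = 3). In log phase Trp53inp1 had a difference of 0.54 and Ccng1 of 0.06, and both effects were larger under stress (adjusted p = 7.70e-06 and 4.00e-09 from limma).

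**Figure D3:**
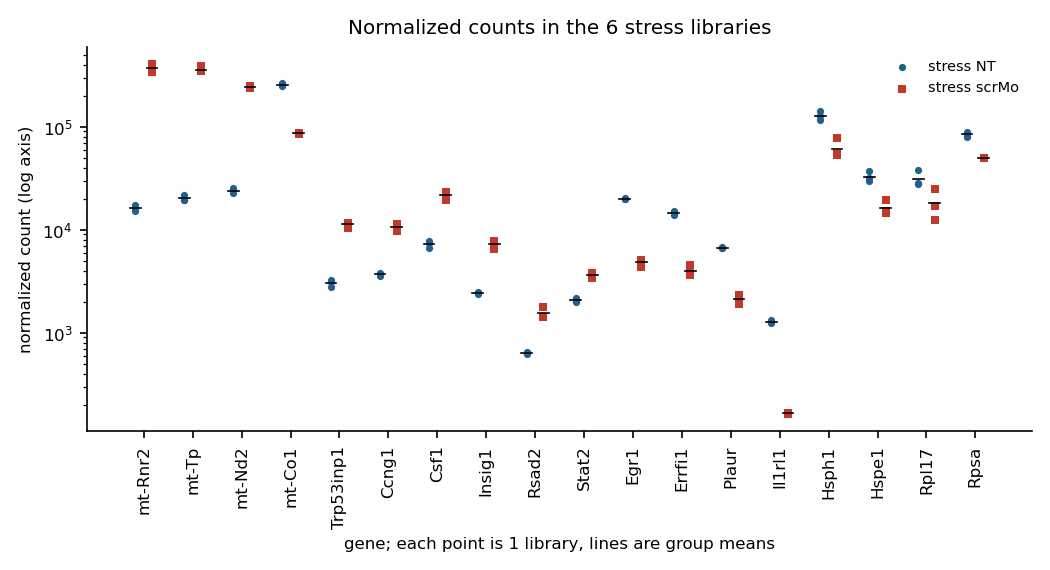
The y axis, a log axis, gives normalised read counts of 18 named genes in the 3 stress NT libraries (circles) and the 3 stress scrMo libraries (squares), and short lines are group means. As for every DE gene, the groups of the genes shown do not overlap, and Rpl17 has the widest spread within groups for its difference.

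Egr1, an immediate early transcription factor switched on by growth factors, had the largest fall on the VST scale, though not in folds of normalised counts. It had 20125, 19670 and 19766 normalised counts in NT and 5073, 4381 and 4982 with scrMo. The groups were far apart, with a 4.13-fold fall, or -1.98 on the log2 scale (SE 0.10, adjusted p = 3.11e-11). Errfi1, a feedback inhibitor of the EGF receptor, fell 3.68-fold, from 15234, 13926 and 14793 to 4562, 3595 and 3787. Dusp5, a phosphatase of ERK, fell 2.78-fold, from 15485 ± 637 to 5564 ± 827 (SD, n = 3). Of 32 measured AP-1 and immediate early genes, 8 fell and 2 rose, against 2.54% of all genes lower and 1.90% higher. The median of the list was -0.21. Egr2 fell by 1.21, Egr3 by 0.99, Spry2, a feedback inhibitor of receptor tyrosine kinases, by 1.14 and Fosl1, an AP-1 subunit, by 0.89 (log2). Plaur, the urokinase receptor, fell 3.15-fold from 6662 ± 96.6 to 2116 ± 197 (SD, n = 3).

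Il1rl1, the receptor of interleukin-33, lies on chromosome 1 from 40429570 to 40465415. It had 1335, 1265 and 1253 normalised counts in NT and 165, 164 and 165 with scrMo, a 7.79-fold fall with a log2 fold change of -1.95 (adjusted p = 1.44e-09). Il18rap, a subunit of the interleukin-18 receptor, lies near it from 40515362 to 40551705 and fell 6.08-fold, from 1242 ± 28.9 to 204 ± 25.2 (SD, n = 3). Pde8b, a cAMP phosphodiesterase, fell 4.87-fold, from 2503, 2734 and 2415 to 603, 499 and 469. Klra4, a member of the Ly49 receptor family, fell 4.32-fold. Gpr149, an orphan receptor, fell 3.15-fold, and Prl2c3, of the proliferin family, fell 2.66-fold from 74422 ± 7228 (SD, n = 3). Klra4 and Prl2c3 belong to families of near-identical genes, among which the counting may split or drop reads, so these 2 values are uncertain.

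Of 30 measured TGF-beta and BMP targets, 5 were DE lower and 0 higher by limma, with a median of -0.08. The adjusted p was passed by 12 as lower and 3 as higher. Over all genes 2.54% were DE lower and 1.90% DE higher, and 24.7% and 22.1% passed the adjusted p as lower and higher. Tgfbi, a matrix protein induced by TGF-beta, fell by 0.91, Ltbp1, which stores latent TGF-beta, by 0.82, Smad7, an inhibitor of the pathway, by 0.64 and Inhba, the activin subunit, by 0.62 (log2). Inhba had -0.58 and was not DE without NT replicate 1. Under quantile normalisation 2 of the 30 were DE, both lower, and with the log2 of the normalised count plus 1 or with voom 8 were lower and 2 higher. Of 29 measured contractile targets of SRF and YAP 1 rose and 2 fell. Among them Ccn1, a matricellular protein, fell by 0.72 and Mylk, myosin light chain kinase, rose by 0.59, with 0.57 and 0.56 and no call without NT replicate 3 or scrMo replicate 2. Among 21 measured Wnt targets and feedback genes 1 rose and 3 fell. Vegfa, the vascular growth factor, rose from 24251, 21416 and 24106 to 43661, 46594 and 48688 normalised counts, a 1.99-fold rise. Fosl1, Ccn1 and Cd44, a hyaluronan receptor that fell by 0.61, were the others.

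Of 51 measured interferon-stimulated genes, 13 rose and 0 fell, against 1.90% of all genes higher. Their median log2 fold change was 0.37, and 46 of the 51 were higher with scrMo. Rsad2, the antiviral protein viperin, had 643, 624 and 636 normalised counts in NT and 1421, 1783 and 1431 with scrMo, a rise of 2.44-fold (log2 fold change 1.01, adjusted p = 6.65e-07). Every scrMo library was above every NT library. Ifit2, an inhibitor of translation of viral RNA, rose 3.00-fold from 230 ± 7.92 to 689 ± 78.4 (SD, n = 3). Ifi44, whose counts were low, rose 5.11-fold from 44.6 ± 4.36 to 228 ± 15.1. Ifit3b rose 2.94-fold, from 169, 189 and 160 to 492, 588 and 445. Gbp7, a guanylate-binding GTPase, rose 3.90-fold in normalised counts but by only 0.78 (log2) on the compressed VST scale. Stat2, the transcription factor of the type I response, rose 1.75-fold from 2000, 2162 and 2034 to 3797, 3616 and 3433 (adjusted p = 1.07e-06). The Ifit and Gbp families hold close copies, and reads may be split between them. With the log2 of the normalised count plus 1 as the scale, 27 of the 51 were DE higher and 1 lower. The genes of MHC class I antigen presentation had 0 of 20 DE by limma and 1 by voom, and a median of 0.10. Of these, 9 had an unadjusted p below 0.05. Against 22.1% of all genes higher and 24.7% lower, 7 of the 20 passed the adjusted p as higher and 1 as lower. The largest changes of the 20 were those of Pdia3, 0.35, and H2-Q4, 0.31. Of 17 sensors of nucleic acids and their adaptors, 1 was DE, the receptor Tlr4, with a rise of 0.66 (log2). The chemokines Cxcl10, with a rise of 2.95-fold, and Ccl5, with 3.41-fold, were the 2 DE genes of 14. On the VST scale they rose by 0.93 and 0.73 (log2).

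Promoters of interferon-stimulated genes can hold the interferon-stimulated response element (ISRE), and these stretches are shown because the core was found in them and their genes rose. The core GAAANNGAAA was searched on both strands in RefSeq windows (GRCm38.p6) from 250 bases before to 50 after each start site. It was present for 3.55% of the 10521 genes tested that have such a window, for 19 of 39 interferon-stimulated genes with one and for 7 of the 11 DE ones. Capitals mark the matches, which are here in the reverse complement, TTTCNNTTTC, and the 2 matches of Gbp3 overlap.
Rsad2, chr12:26456508-26456627, minus strand: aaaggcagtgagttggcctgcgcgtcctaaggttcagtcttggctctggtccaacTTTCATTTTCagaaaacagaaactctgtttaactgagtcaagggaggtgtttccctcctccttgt
Ifit3b, chr19:34607731-34607850, plus strand: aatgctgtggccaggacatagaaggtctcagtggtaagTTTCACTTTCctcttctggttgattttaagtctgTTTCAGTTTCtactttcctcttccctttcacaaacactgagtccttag
Gbp3, chr3:142559947-142560066, plus strand: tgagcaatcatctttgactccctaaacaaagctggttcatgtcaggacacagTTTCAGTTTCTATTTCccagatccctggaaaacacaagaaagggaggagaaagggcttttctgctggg
A match describes the letters of the window and not binding.

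In log phase the interferon-stimulated genes had the opposite sign. There 43 of the 51 were DE lower with scrMo than with NT and 0 were DE higher, against 1.85% and 0.592% of all genes. All 51 had a lower mean, and the median was -1.0. The stress and log phase comparisons share no library. The difference of the 2 effects, tested as an interaction, was DE for 46 of the 51, all higher under stress, against 5.55% of all genes higher and 5.37% lower. For Ifit3b the effect was 0.90 under stress and -1.68 in log phase (adjusted p = 3.01e-10 for the difference), for Stat2 0.73 and -1.18 (adjusted p = 5.88e-10) and for Ifi44 0.91 and -1.43 (adjusted p = 1.68e-10). For the MHC class I genes, 12 of 20 had a DE difference, all higher under stress, and the log phase median was -0.68. DkkMo against NT under stress had a median of 0.27 over the interferon-stimulated genes, with the NT libraries shared.

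Heat shock genes were lower with scrMo, in a list of cytosolic chaperones that also holds the mitochondrial Hspd1 and Hspe1. Of 21 measured, 14 fell and 0 rose, against 2.54% of all genes lower. The adjusted p was passed as lower by 20 of the 21, against 24.7% of all genes. The median log2 fold change of the 21 was -0.75. Bag3, a co-chaperone of Hsp70, fell 2.39-fold, from 20943, 25763 and 23561 normalised counts to 11801, 8712 and 8902 (log2 fold change -1.24, adjusted p = 1.98e-08). Hsph1, an Hsp110 chaperone, fell 2.09-fold, from 115558, 142128 and 126853 to 77099, 53273 and 53783. Hspb1, a small heat shock protein, fell 2.08-fold, from 30787, 42448 and 36626 to 22735, 14755 and 15432. The groups did not overlap for any of the 3, and scrMo replicate 1 was the nearest to NT in each. Ahsa1, the activator of Hsp90, fell by 0.99, Hspe1, the mitochondrial Hsp10, by 0.99 and Cryab, alpha-B crystallin, by 0.93 (log2). Without scrMo replicate 1 the median of the list was -0.86. In log phase the list was higher with scrMo, with a median of 0.26. There 5 were DE higher and 0 lower, against 0.592% and 1.85% of all genes. The difference was DE for 20 of 21 genes, all lower under stress, against 5.37% of all genes lower. For Hsph1 the effect was -1.08 under stress and 0.85 in log phase (adjusted p = 3.16e-07 for the difference), and for Cryab -0.93 and 1.15 (adjusted p = 1.98e-08).

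The heat shock element (HSE), TTCNNGAANNTTC or its reverse complement GAANNTTCNNGAA, was in the promoter windows of 0.589% of genes tested, of 4 of 16 heat shock genes with a window and of 3 of 12 DE ones, Hsph1, Hspd1 and Hspe1. Hspd1 and Hspe1 encode the mitochondrial chaperonin and are read in opposite directions from the stretch shown, in which the 2 matches overlap.
Hspe1, chr1:55088008-55088127, plus strand: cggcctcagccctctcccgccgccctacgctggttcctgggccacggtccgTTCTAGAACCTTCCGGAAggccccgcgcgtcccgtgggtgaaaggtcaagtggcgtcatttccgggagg
Hspe1 had 29696, 37029 and 31658 normalised counts in NT and 19421, 14488 and 15325 with scrMo, a 2.00-fold fall.

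Of 20 measured chaperones of the endoplasmic reticulum (ER) and unfolded protein response genes, 3 rose and 0 fell, against 1.90% of all genes higher. The adjusted p was passed by 12 as higher and 1 as lower, against 22.1% and 24.7% of all genes. The list had a median of 0.33. Hspa5, the ER chaperone BiP, had 84164, 87572 and 85983 normalised counts in NT and 143937, 146274 and 150437 with scrMo, a rise of 1.71-fold (adjusted p = 5.89e-04). Herpud1, of ER-associated degradation, rose 2.08-fold and Sdf2l1, an ER chaperone subunit, 1.58-fold. Of 31 genes of the amino acid response to ATF4, 3 rose and 0 fell. They were Ddit3, the transcription factor CHOP, with 8470, 9798 and 9295 in NT and 20314, 19588 and 19492 with scrMo, a 2.15-fold rise, Gdf15, a stress cytokine, with 2.08-fold, and Trib3, a pseudokinase, with 1.54-fold. The median of that list was -0.07, and Atf4 itself has no value here. Neither Trib3 nor Sdf2l1 was DE in every fit that left out 1 library. Trib3 had 0.56 without NT replicate 2 and 0.57 without scrMo replicate 3, and Sdf2l1 had 0.58 without NT replicate 1 and 0.57 without scrMo replicate 3.

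Of 71 measured genes of cytosolic ribosomal proteins, 35 fell and 0 rose, against 2.54% of all genes DE lower and 1.90% DE higher. All 71 had a lower mean, and 69 passed the adjusted p as lower, against 24.7% of all genes. The median log2 fold change was -0.58, close to the threshold of 0.585 for 1.5-fold. Rpsa, of the small subunit and also a laminin receptor, fell 1.70-fold, from 80267, 89779 and 81911 to 49790, 49186 and 49630 (adjusted p = 9.92e-06). Rps4x fell 1.69-fold, Rpl28 1.74-fold, Rpl36 1.74-fold and Rps29 1.72-fold. Rpl17 varied more, with 37764, 28353 and 27908 in NT and 17092, 24952 and 12337 with scrMo, and -0.58 and no call without scrMo replicate 3. Together these genes held 9.66 to 10.4% of reads in NT and 7.04 to 7.49% with scrMo. The count depends on single libraries and on the scaling. Leaving out 1 library gave 22 to 42 DE lower, with 22 without NT replicate 2 and 42 without NT replicate 1. Under quantile normalisation 0 of the 71 were DE, 53 passed the adjusted p as lower, 68 had a lower mean and the median was -0.28. These genes have short transcripts and many processed pseudogenes, which can take reads. Among 2422 other protein-coding genes above the median level and no longer than 90% of them, the median was -0.11 and 4.25% were DE lower. The part of length in the result was not tested. In log phase the median of the ribosomal protein genes was 0.27, with 0 DE by limma and 61 with an unadjusted p below 0.05. There 37 passed the adjusted p as higher, as did 1954 of all 16562 genes tested. The difference was DE and lower under stress for 63 of 71, against 5.37% of all genes. DkkMo against NT under stress had a median of -0.52, with the NT libraries shared.

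Of 38 listed histone genes whose mRNAs normally end without a poly(A) tail, 16 had a value. Of these 5 rose and 0 fell, against 1.90% of all genes higher, 6 did not pass the adjusted p and the median was 0.24. With voom 9 were DE higher. H2bc8 had 559, 685 and 586 normalised counts in NT and 1763, 1928 and 2046 with scrMo, a 3.14-fold rise, H1f2 rose 2.64-fold and H2bc4 2.20-fold. H2ac18 rose 6.43-fold and H2ac6 6.78-fold from 44.3 ± 14.7 and 22.3 ± 9.19 (SD, n = 3). Libraries were selected with oligo(dT), and these genes have near-identical copies, so the values are uncertain. Of 52 replication genes, 0 rose and 1 fell, Gins2 of the replicative helicase, by 0.63. Of 56 genes of mitosis and the spindle, 1 rose, Ckap2, from 192 ± 25.9 to 396 ± 21.3 (SD, n = 3), and 0 fell, with a median of 0.06. Ckap2 had 0.55 without NT replicate 2 and 0.57 without scrMo replicate 3, and was not DE there. The count for mitosis depends on the scale, with 13 DE higher on the log2 of the normalised count plus 1, 7 with voom and 0 lower in both. In log phase 12 of those 56 were DE lower with scrMo, against 1.85% of all genes. There 55 had a lower mean, with a median of -0.43. The difference was DE and higher under stress for 16 of the 56, against 5.55% of all genes.

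Genes of bone matrix changed in both directions. Of 35 measured collagens and matrix genes, 4 rose and 3 fell, against 1.90% of all genes DE higher and 2.54% DE lower. Col1a2, a chain of type I collagen, had 2231, 2150 and 2113 normalised counts in NT and 5534, 6122 and 5960 with scrMo, a 2.71-fold rise (log2 fold change 1.33, adjusted p = 1.56e-07). Col1a1, the other chain, rose 1.76-fold, Col12a1 3.26-fold from 215 ± 18.2 (SD, n = 3) and Col11a1 3.44-fold from 60.7 ± 2.87 (SD, n = 3). Tnc, tenascin C, fell by 0.99 on the log2 scale, and Col8a1, a short-chain collagen, fell 2.01-fold. In log phase 17 of the 35 were DE lower with scrMo and 0 DE higher, against 1.85% and 0.592% of all genes. There 33 had a lower mean. The log phase median was -0.52, against 0.14 under stress. The difference was DE and higher under stress for 18 and lower for 3, against 5.55% and 5.37% of all genes. For Col1a2 the effects were 1.33 and -1.06 (adjusted p = 8.63e-09 for the difference). Of 18 osteoblast lineage genes 1 was DE, Ogn, a small proteoglycan, which rose 3.65-fold from 56.7 ± 15.4 (SD, n = 3). It had 0.71 to 0.75 (log2) and was not DE in any fit without scrMo replicate 1, 2 or 3 or without NT replicate 1 or 2. Of 8 chondrocyte lineage genes 1 was DE, Col11a2, with a 2.42-fold rise. Among 27 metalloproteinases and their inhibitors 2 rose, Adamts5, an aggrecanase, 3.41-fold and Mmp11 1.82-fold.

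The counts of the lists of metabolism, membrane traffic and NF-kB stand against 4.43% of all genes DE. In fatty acid synthesis 2 of 15 rose, Fads2, a desaturase, 2.65-fold and Acacb, an acetyl-CoA carboxylase, 2.29-fold. Acacb had 0.58 (log2) and no call without scrMo replicate 2. Insig1 was the 1 DE gene of 23 in cholesterol synthesis. Of 32 genes of glycolysis and the hypoxia response 2 rose and 5 fell. Ddit4, an inhibitor of mTORC1, rose 1.64-fold beside Vegfa. Pfkl, a phosphofructokinase, fell 1.95-fold, Ankrd37 2.10-fold, Pgk1, phosphoglycerate kinase, 1.55-fold and Egln1, an oxygen-sensing hydroxylase, 1.62-fold. Of 40 redox genes, Nqo1, a quinone reductase and NRF2 target, rose from 1225, 1075 and 1025 to 2658, 2962 and 2973, a 2.58-fold rise. Gpx8, an ER peroxidase, fell 2.42-fold and Prdx5, a peroxiredoxin, 1.65-fold. Of 45 endocytosis genes, 1 rose and 2 fell, and 23 passed the adjusted p as lower, against 24.7% of all genes. Their median was -0.185, and -0.037 under quantile normalisation. Cav1, the main protein of caveolae, fell 2.37-fold from 9165, 9487 and 8991 to 3834, 4067 and 3787, Cltb, a clathrin light chain, fell 2.43-fold and Cavin2, a caveolar coat protein, rose 2.55-fold. Of 54 lysosome and autophagy genes, Sgsh, Lipa and Arsb, which are lysosomal hydrolases, rose 2.34-fold, 1.87-fold and 2.00-fold, and Cd63, a late endosomal tetraspanin, fell 1.65-fold. Among 32 NF-kB genes Csf1 rose and Nfkb1, Nfkbib and Relb, which encode NF-kB subunits or an inhibitor, fell by 0.63, 0.60 and 0.59 (log2). Nfkbib had -0.58 and no call without scrMo replicate 1, and Relb -0.54 to -0.58 and none without NT replicate 3, scrMo replicate 1 or scrMo replicate 3. None of 6 genes of the glucose response of MondoA was DE by limma, 1 was by voom, 3 had an unadjusted p below 0.05, 1 passed the adjusted p as higher and 2 as lower, and Pik3ip1 at 0.53 and Mlxip at -0.44 had the largest changes.

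Of 27 measured markers of other cell types, 0 were DE under stress by limma, 14 had an unadjusted p below 0.05, and voom called 3 higher and 3 lower. For T and B cells 0 of 12 markers had a value. Of the others, 7 macrophage, 5 endothelial, 3 epithelial, 5 adipocyte, 5 skeletal muscle and 2 erythroid markers had one. The summed normalised counts of the macrophage markers were 2280 to 2596 in NT and 2354 to 2467 with scrMo, and those of the endothelial markers 1670 to 1769 and 1930 to 2238. Those of the epithelial markers were 155 to 181 and 114 to 174, of the adipocyte markers 1951 to 2062 and 2229 to 2375, of the muscle markers 1352 to 1379 and 1229 to 1313 and of the erythroid markers 25.8 to 29.0 and 19.6 to 24.3. The endothelial, adipocyte, muscle and erythroid sums did not overlap, and neither did the groups for 63.5% of all genes. The erythroid sums rest on 26 to 33 reads in NT and 19 to 22 with scrMo. The part of other cells in the results was not tested. Lyz2, a lysozyme of macrophages, had 98.6 ± 17.2 normalised counts in NT and 195 ± 27.8 (SD, n = 3) with scrMo, while Csf1r, their defining receptor, had 744 ± 46.8 and 570 ± 3.95.

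**Figure D4:**
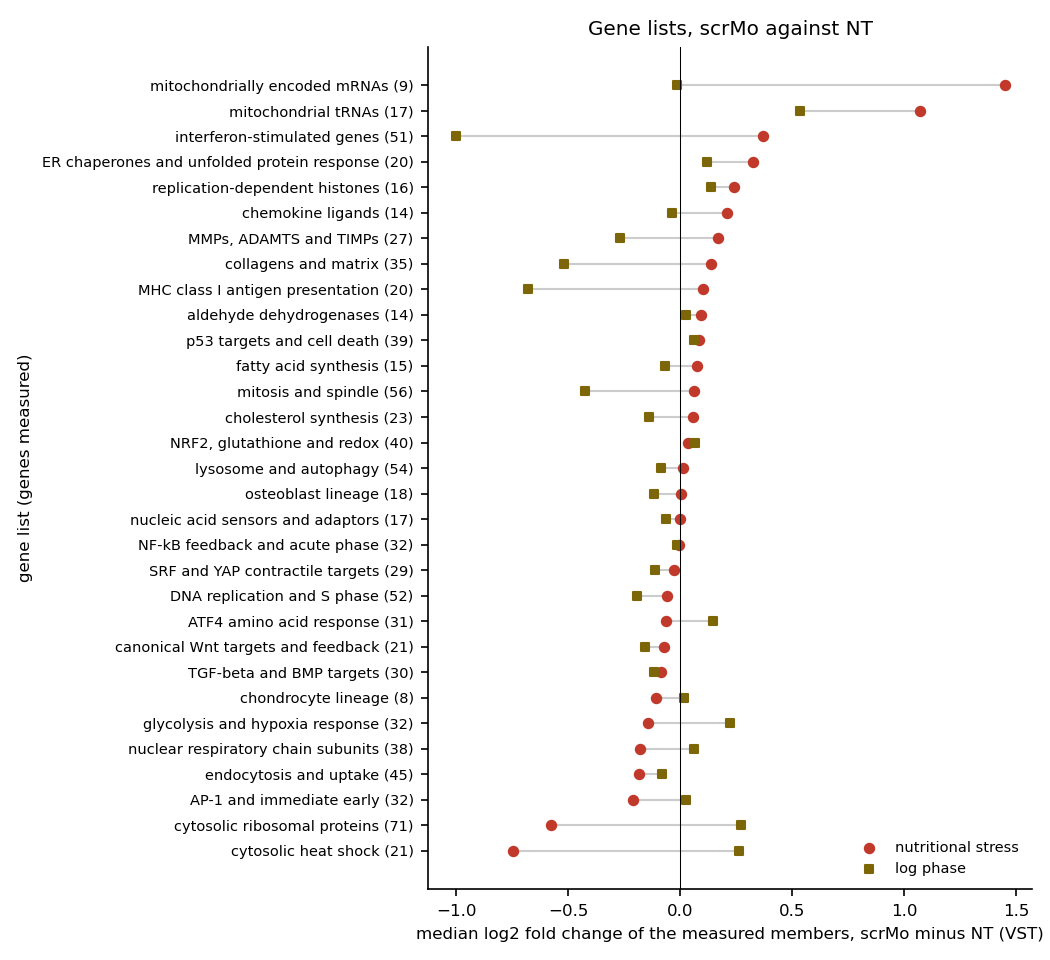
The x axis gives the median log2 fold change, scrMo minus NT, over the measured members of each list with at least 8 of them, under stress (circles) and in log phase (squares). Under stress the interferon-stimulated genes have 0.37 and in log phase -1.0, the heat shock genes -0.75 and 0.26, and the ribosomal proteins -0.58 and 0.27.

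Across all genes, 104 were DE in both culture conditions, 14.2% of the 734 under stress and 25.7% of the 405 in log phase. Of these, 30 changed in the same direction and 74 in opposite directions. The 74 comprised 50 that were higher under stress and lower in log phase and 24 with the reverse. The difference of the effects was DE for 1810 genes, 920 higher and 890 lower under stress, and 613 of the 734 stress DE genes were among them. The effects of Pde8b, which had the largest difference below 0 on the VST scale, were -1.84 under stress and 0.84 in log phase (adjusted p = 1.72e-12 for the difference). Prl2c3 had -1.40 and 1.12, Dusp5 -1.44 and 0.95, Bmp7, a bone morphogenetic protein, -1.30 and 0.94, and Klra4 -1.79 and 0.31. Gdf15 and Ddit4 rose in both conditions, by 0.91 and 0.77 and by 0.66 and 0.70 (log2), and Tgfbi fell in both, by 0.91 and 0.78. Their differences were -0.04 for Ddit4 (adjusted p = 0.843), 0.14 for Gdf15 (adjusted p = 0.555) and -0.13 for Tgfbi (adjusted p = 0.555).

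**Figure D5:**
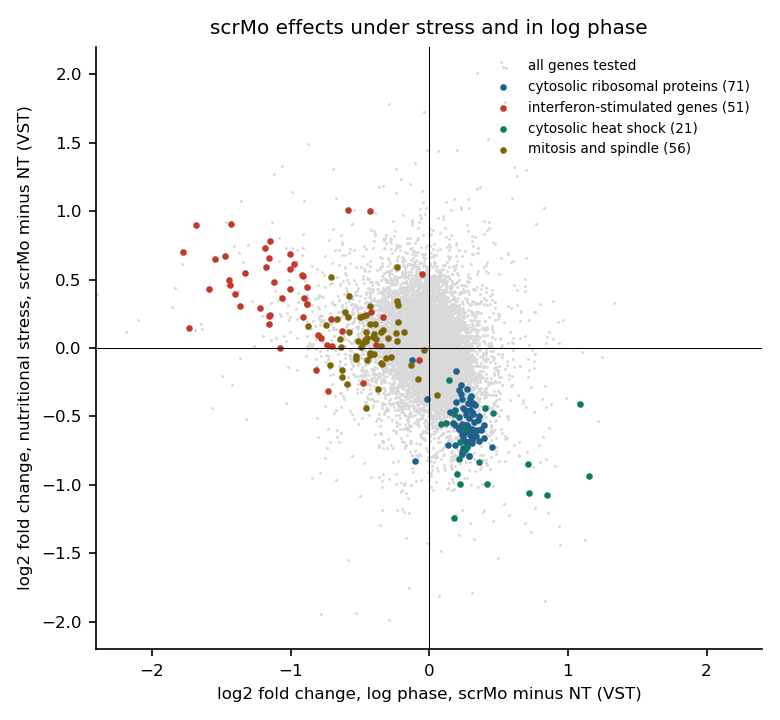
Each point is a gene, with the log2 fold change of scrMo against NT in log phase on the x axis and under stress on the y axis, and 9 genes lie outside the axes. Interferon-stimulated genes (red, 51) lie mainly at the upper left, heat shock genes (green, 21) and ribosomal protein genes (blue, 71) at the lower right, and genes of mitosis (brown, 56) left of 0 and near 0 on the y axis.

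Genes that the study discusses for Dkk-1 were read in the same libraries. Sox2, a stem cell transcription factor, lies on chromosome 3 from 34650405 to 34652461. It had 3646, 3493 and 3503 normalised counts in NT and 1699, 1648 and 1633 with scrMo, and the groups were far apart. The fall was 2.14-fold, or -0.98 on the log2 scale (SE 0.08, adjusted p = 2.85e-08), against 0.05 in log phase (adjusted p = 1.32e-06 for the difference). Aldh1a1, a retinaldehyde dehydrogenase, had 18.4, 19.8 and 18.1 in NT and 39.7, 16.6 and 26.4 with scrMo. Its groups overlapped and the log2 fold change of 0.10 did not pass (adjusted p = 0.177). The VST compresses changes at such low counts, so a change of Aldh1a1 was poorly measured here. Hsd17b4, an enzyme of peroxisomal fatty acid oxidation, had 1145 ± 36.5 and 1167 ± 70.9 (SD, n = 3), which differed by 0.02 on the log2 scale (adjusted p = 0.768). Of 14 aldehyde dehydrogenases, Aldh1l2, of mitochondrial folate metabolism, rose 1.74-fold, Aldh6a1 rose 1.79-fold and Aldh7a1 fell 2.10-fold. Aldh6a1 had 0.58 (log2) and no call without NT replicate 2.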

How the data were processed

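RNA was sequenced as paired reads of 150 bp after oligo(dT) selection. The authors aligned reads to GRCm38 (Ensembl) with HISAT2 2.1.0, used SAMtools 1.9 and featureCounts of Subread 2.0.0 for counts per gene, and transformed them with DESeq2 to stabilise the variance. The deposited values are on a log2 scale, on which 7.20 is the lowest value and stands for no reads. Strand use and treatment of reads with several positions are not given in the sources used here.

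Reversing the transformation gave whole numbers of reads (100% within 0.02), from which normalised counts were computed. The last 14 rows of the table were left out because their values spanned at least 7.31 within a group, against at most 1.96 elsewhere. The 16562 other genes all had reads in at least 3 libraries. limma 3.58.1 (R 4.3.3) tested the differences in a model of the 18 culture libraries with a variance trend and Benjamini-Hochberg adjustment over all genes. The model was checked on simulated data. Standard errors cover the spread between libraries, to which counting error adds most for genes with few reads.

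The comparison and the 40 gene lists were chosen with earlier results of these data known. The text names the 12 DE genes with the largest rise and the 12 with the largest fall whose groups did not overlap, up to 6 DE members of each list (2 members where none was DE), the 5 largest differences each way between conditions, and Dkk1, Aldh1a1, Sox2 and Hsd17b4, predicted genes left out. Some genes that this rule names are not reported here. Alternatives were other filters, models, scalings, thresholds, a replicate block and leaving out each library. Positions are from GENCODE M21, in which 98.6% of genes matched. Tumours were not used here. Figures were made with matplotlib.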

Additional observations from a re-analysis of the deposited data

Results flagged for a closer look

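The effect of scrMo against NT differed between nutritional stress and log phase for many genes, by the interaction in limma at an adjusted p below 0.05 and a difference over 1.5-fold. The difference was higher under stress for 920 genes and lower for 890. Among the largest differences above 0 (log2, stress effect minus log phase effect) were those of mt-Tp, 3.60, mt-Tq, 2.74, mt-Rnr1, 2.66, and mt-Tt, 2.64. The largest below 0 were those of Pde8b, -2.68, Prl2c3, -2.52, Dusp5, -2.38, Bmp7, -2.24, and Klra4, -2.10. Of 135 named genes, 103 had a DE difference, and for 69 of these the effects had opposite signs. The named genes were chosen largely as DE under stress or for the size of the difference, so this count follows in part from the choice. Over all genes the difference was DE for 1810 of 16562, and among the 734 stress DE genes for 613. With 3 libraries a group, outlying single libraries were not searched for.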

How the results depend on the processing

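The number of DE genes depended on the threshold and on the scale. On the log2 of the normalised count plus 1, which does not compress low counts, there were 2923 DE genes under stress (1858 higher, 1065 lower), 1320 in log phase (437 and 883) and 4221 for the difference of effects (2498 and 1723). limma voom on the recovered reads gave 2946 (1854 and 1092), 1345 (428 and 917) and 4242 (2491 and 1751). All 734 stress DE genes were among those of both scales. With adjusted p alone the counts were 7743 (3655 and 4088), 4365 (1954 and 2411) and 7612 (3773 and 3839), and with over 2-fold changes 108 (54 and 54), 93 (12 and 81) and 418 (253 and 165). With only genes above the median gene, 166 genes were higher under stress, 269 were DE in log phase (187 lower) and 478 had a higher difference, out of fewer genes tested. Quantile normalisation gave 273 lower genes under stress. The share of stress DE genes that were higher was 42.8%, and 31.7% with library medians centred, 52.9% with quantile normalisation, 63.6% with the log2 count and 62.9% with voom. Leaving out each library in turn gave 682 to 806 DE genes under stress (294 to 340 higher, 377 to 466 lower), 377 to 468 in log phase and 1725 to 1961 for the difference.

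Deviations from the group means had correlations across genes of -0.17, -0.193 and 0.107 for libraries that share a number. For pairs with different numbers they were -0.109 to 0.234. Deviations within a group are not independent, so whether libraries share more than a number cannot be told from these values. With the number as a replicate block there were 747 DE genes under stress, 710 of them among the 734, and 1819 for the difference. Trib3, Sdf2l1 and Cd44 were no longer DE. With the 2 NT libraries of the same number averaged, 704 genes were DE.

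No named DE gene changed sign under any alternative. Quantile normalisation ended the call of 22 named genes, and centring that of 6. Ogn was no longer DE in 5 of the 6 fits without a stress library, and Rpl17 in 1, that without scrMo replicate 3. The 14 rows left out, when included, added 14 DE genes. The ranges cover the alternatives run, and genes with few reads have the least certain folds.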
